A study of Mus musculus with 6 samples.

Results

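Transcripts of 10 nuclear-encoded subunits of cytochrome c oxidase were examined in the liver of DUhTP (marathon) mice and of DUC controls, out of 12393 genes that have a probe set with a single gene symbol. The 10 genes were chosen by name with the comparison of the lines on these same arrays in view, and Cox6b2 was picked from its difference between the lines. Their differences between DUhTP and DUC are therefore given as a description. Where calls among their probe sets are counted, the count describes the values that the choice used, stands beside the share over all probe sets and supports nothing. Each gene was represented by every probe set whose only symbol is that gene, 23 probe sets in all. The genes fall into 8 common subunits (Cox4i1, Cox5a, Cox5b, Cox6a1, Cox6b1, Cox6c, Cox7a2 and Cox8a) with 21 probe sets and 2 tissue-restricted isoforms (Cox6a2 and Cox6b2) with 1 probe set each.

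DUhTP is a line selected over many generations for high treadmill performance, and DUC is its unselected control line. Both lines descend from the same cross of outbred and inbred mice and are bred to avoid inbreeding, so neither is a uniform genotype. The mice were males of 70 days and carried no transgene or treatment, and liver RNA was hybridized to 3 Affymetrix arrays per line. The methods describe each array as a pool and the sample labels as a mouse, so every SD below is a spread among arrays that may be pools, and p-values measure that spread alone.

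Cytochrome c oxidase is complex IV of the respiratory chain. It takes electrons from cytochrome c, hands them to oxygen and pumps protons across the inner mitochondrial membrane. The catalytic core is encoded by mitochondrial DNA, and smaller subunits encoded in the nucleus surround it and adjust its activity, stability and pairing into dimers. Several of these subunits exist as a common form and as a form restricted to certain tissues. Cox6a2 is the form of subunit 6a in heart and skeletal muscle, whereas liver uses Cox6a1. Cox6b2 is the form of subunit 6b described in testis, whereas other tissues use Cox6b1.

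The deposited values are linear PLIER intensities without a physical unit, and the median of an array was 53.1 to 56.6 in DUhTP and 56.3 to 57 in DUC livers. Intensities of different probe sets cannot be set against each other, so each gene was compared with itself between the lines. A log2 fold change is the mean log2 intensity of DUhTP arrays minus that of DUC arrays, and a fold change (FC) below 0 means lower abundance in DUhTP livers. Over all 22626 probe sets 546 were called by limma at an adjusted p under 0.05, which is 2.41%, with 1.36% higher and 1.05% lower in DUhTP livers. Of the 23 probe sets of the 10 genes 1 was called, that of Cox6b2, and since this comparison was in view when the genes were chosen, nothing is read from that count. Liver markers were bright in both lines, with an intensity of 13776 ± 415 in DUhTP and 14103 ± 317 in DUC livers for albumin (Alb), and of 17134 ± 100 in DUhTP and 17126 ± 294 in DUC livers for Apoa1 (SD, n = 3 arrays each). Of 10 hepatocyte markers, 1 was called, the tyrosine aminotransferase Tat, which fell (FC -1.84, adjusted p = 0.037 from limma, 0.0701 to 0.139 with 1 array left out, and 0.0186 at most with 16 added as well). With 16 added 2 of the 10 were called, Tat and Hnf4a, both lower, and 3 were called in limma-trend. The summed intensity of the hepatocyte markers was lower in DUhTP arrays, at 94618 to 98771 against 101600.2 to 106816 in DUC arrays. Such a sum is weighted to the brightest probe sets, and not all markers shared this direction. Besides Tat, the log2 fold change was -0.33 for Cps1, -0.19 for Fgb and -0.41 for Hnf4a. It was -0.03 for Alb, 0.07 for Ttr and 0.10 for Serpina1c (brightest probe sets).

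**Figure D1:**
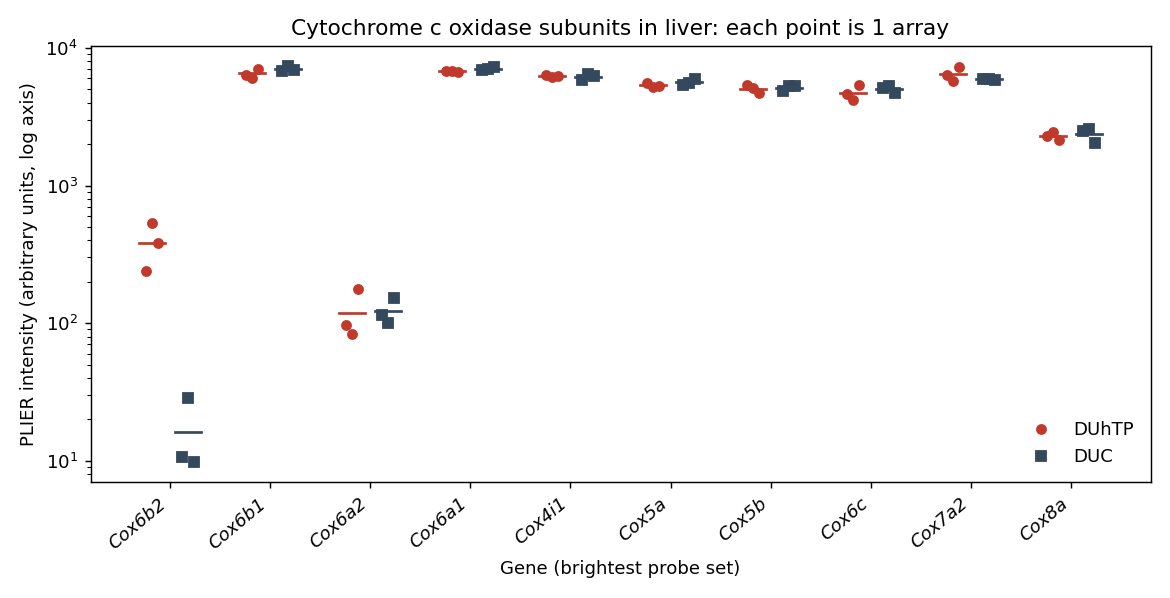
PLIER intensity (arbitrary units, log axis) of the brightest probe set of each of the 10 genes, with 1 point per array and a bar at the mean of the 3 arrays of a line. Cox6b2 lay between 238 and 530.2 in DUhTP arrays and between 9.76 and 28.4 in DUC arrays, while the arrays of the lines lay close together for the common subunits; heights of different genes are not comparable.

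Cox6b2 read many times higher on every DUhTP array than on any DUC array. Its probe set 1435275_at read 238, 530.2 and 381 in DUhTP replicates 1, 2 and 3, against 10.6, 28.4 and 9.76 in DUC replicates 1, 2 and 3. All DUhTP arrays lay above all DUC arrays. The mean was 383 ± 146 in DUhTP and 16.3 ± 10.5 in DUC livers (SD, n = 3 arrays each), with a log2 fold change of 4.67, a standard error of 0.50 and an FC of 25.4. The size depended on the dim DUC values, and with 16 added to every intensity before the log the FC was 12.2. Within DUhTP livers replicate 2 was the highest and replicate 1 the lowest, and within DUC livers replicate 2 was the highest.

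Cox6b1, the common paralog of Cox6b2, read about alike in the lines. Subunit 6b sits on the intermembrane side of the enzyme, where it helps to join the monomers of the dimer. The brightest Cox6b1 probe set, 1436757_a_at, read 6396, 6083 and 7066 in DUhTP arrays, against 6835, 7412 and 6945 in DUC arrays. The arrays of the lines overlapped, and the log2 fold change was -0.12 (standard error 0.11). The other Cox6b1 probe set, 1416565_at, stood at a log2 fold change of -0.11 (standard error 0.15). The log2 ratio of Cox6b2 over Cox6b1, set to a mean of 0 in DUC livers, was 4.20, 5.42 and 4.73 in the DUhTP arrays, against -0.39, 0.92 and -0.53 in the DUC arrays. Its mean was thus 4.78 ± 0.61 in DUhTP livers and 0 ± 0.80 in DUC livers (SD, n = 3 arrays each).

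Cox6a2 (chr7:128205435-128206366 on GRCm38.p6), the muscle form of subunit 6a, overlapped between the lines, and its common paralog differed by little. Its only probe set, 1417607_at, read 96.7, 84.0 and 177 in DUhTP arrays, against 115, 100.3 and 152 in DUC arrays. Replicate 3 was the highest array in each line and the lines overlapped, with a log2 fold change of -0.10 (standard error 0.32). Cox6a1 (chr5:115345652-115348958), the form of subunit 6a used in liver, read 6746, 6833 and 6707 in DUhTP arrays on its brightest probe set 1417417_a_at, against 6928, 6975 and 7211 in DUC arrays. The DUhTP arrays all lay below the DUC arrays, though by little, with a log2 fold change of -0.06 (standard error 0.10). The other Cox6a1 probe set, 1417418_s_at, overlapped between the lines (log2 fold change -0.10, standard error 0.12). The log2 ratio of Cox6a2 over Cox6a1, again set to 0 in DUC livers, was -0.26, -0.48 and 0.62 in DUhTP arrays, against -0.05, -0.25 and 0.30 in DUC arrays. The difference between the lines, -0.04, was smaller than the SD of either line, 0.58 in DUhTP and 0.28 in DUC livers. Whether Cox6b2 and Cox6a2 differ in their response was not tested, as Cox6b2 was picked for its value.

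**Figure D2:**
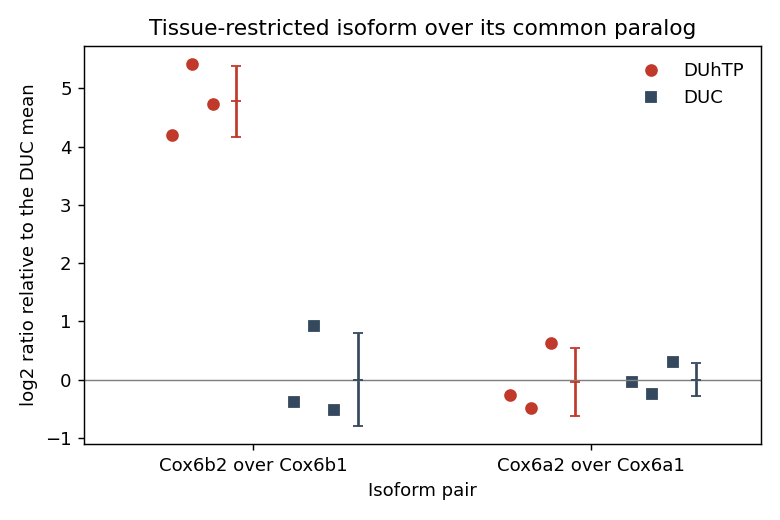
Log2 ratio of each tissue-restricted isoform over its common paralog on the same array, relative to the DUC mean; points are arrays and the marks beside them give mean and SD of the 3 arrays of a line. The Cox6b2 ratio lay between 4.20 and 5.42 in DUhTP livers and between -0.53 and 0.92 in DUC livers, whereas the Cox6a2 ratio overlapped.

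Cox6b2 and Cox6b1 both lie on mouse chromosome 7, and the DNA at their starts is shown to set the restricted isoform beside its common paralog. In RefSeq on GRCm38.p6 the Cox6b2 gene spans chr7:4751792-4753094 and the Cox6b1 gene chr7:30616971-30626114. The windows below hold the 250 bases before and 50 bases after the start, on the minus strand, at chr7:4753045-4753344 for Cox6b2 and chr7:30626065-30626364 for Cox6b1. Capitals mark matches to motifs of factors that act on many respiratory genes, searched on both strands: GCGC, any 2 bases and again GCGC for NRF1, CCGGAAG for GABP and GGGCGG for Sp1.
Cox6b2: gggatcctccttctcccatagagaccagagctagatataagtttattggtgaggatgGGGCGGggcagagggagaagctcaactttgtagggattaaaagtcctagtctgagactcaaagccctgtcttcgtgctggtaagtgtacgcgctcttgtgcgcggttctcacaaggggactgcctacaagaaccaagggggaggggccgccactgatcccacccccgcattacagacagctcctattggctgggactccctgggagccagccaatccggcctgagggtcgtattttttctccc
Cox6b1: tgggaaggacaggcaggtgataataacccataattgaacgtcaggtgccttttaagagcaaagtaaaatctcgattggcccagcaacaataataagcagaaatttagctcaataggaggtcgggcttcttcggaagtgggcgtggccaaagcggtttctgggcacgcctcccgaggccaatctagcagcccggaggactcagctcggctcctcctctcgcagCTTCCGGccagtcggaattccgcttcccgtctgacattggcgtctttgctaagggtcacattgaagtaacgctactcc

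The Cox6b1 window holds 1 GABP match, at position -28 from the start, and 0 matches to the NRF1 and Sp1 motifs. The Cox6b2 window holds 1 Sp1 match, at position -193, and 0 matches to the GABP and NRF1 motifs. Cox6b2 has 10 CpG pairs and Cox6b1 has 17 in their 300 bases, where the median of all 32851 windows is 7. The GABP letters occur in 8.86% of all windows, the Sp1 letters in 35.7% and the NRF1 letters in 6.23%. Windows were given for 7 of the 10 genes, and of these 3 hold the GABP letters, 4 the Sp1 letters and 1 the NRF1 letters, the last in Cox6a1. The TATA box letters TATAAA occur in 0 of the 7 and in 13.6% of all windows. A match describes letters in this window and does not show binding, and these windows are those of the reference strain, not of DUhTP or DUC mice.

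Genes next to Cox6b2 on chromosome 7 were compared in the same fit, since they share its surroundings but were not chosen by their values. The 4 nearest measured genes on each side gave 9 probe sets, of which 0 passed an adjusted p under 0.05 in limma, where 2.41% of all probe sets did. With 16 added 0 of the 9 passed, beside 8.62% of all. An unadjusted p under 0.05 was seen for 1 of the 9, that of Isoc2b, and for 4769 of all 22626 probe sets. Kmt5c, a histone methyltransferase 4.3 kb away, read 126 ± 15.4 in DUhTP and 113 ± 15.1 in DUC livers (SD, n = 3 arrays each; log2 fold change 0.16, adjusted p = 0.621 from limma). Il11, a cytokine gene 19.3 kb away on the other side, read 41.4 ± 10.6 in DUhTP and 36.4 ± 8.28 in DUC livers (log2 fold change 0.18, adjusted p = 0.739 from limma). The remaining log2 fold changes were 0.32 for Syt5, -0.05 for Hspbp1, -0.04 for Tmem150b, 0.23 and 0.69 for the probe sets of Ube2s, 0.40 for Isoc2b and -0.22 for Fiz1. All DUhTP arrays lay above all DUC arrays for Isoc2b (adjusted p = 0.138 from limma) and below them for Fiz1 (adjusted p = 0.374). The span holds 26 protein-coding genes in the annotation, so not all genes around Cox6b2 were analysed here.

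**Figure D3:**
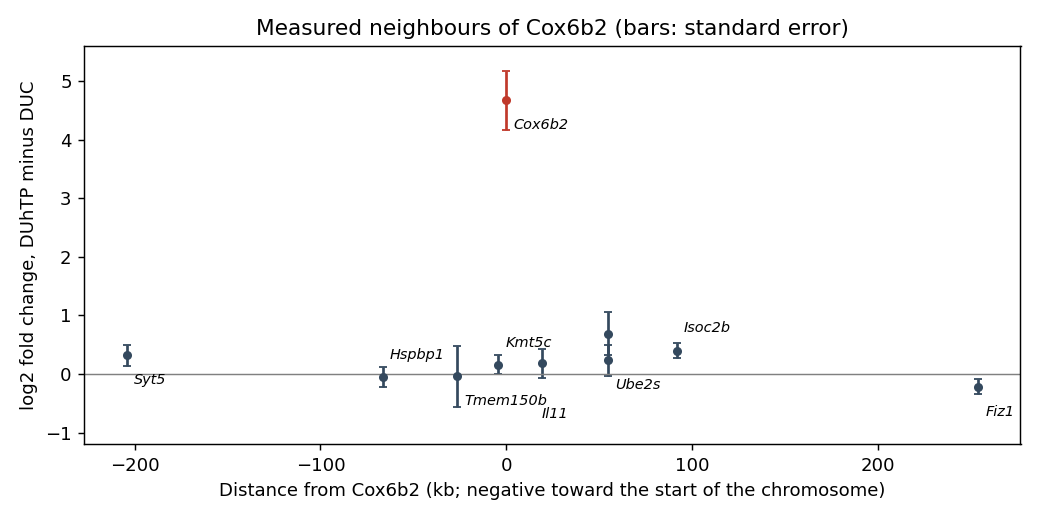
Log2 fold change (DUhTP minus DUC, bars are standard errors) of Cox6b2 and of the 4 nearest measured genes on each side, by distance in kb. Cox6b2 stands at 4.67, and the 9 probe sets of its neighbours lie between -0.22 and 0.69.

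The 8 common subunits differed little between the lines. Of their 21 probe sets, 0 were called in limma, 0 with 16 added and 0 in limma-trend. An unadjusted p under 0.05 was seen for 1, a dim one of Cox5b, again as a description. Over all 22626 probe sets 546 were called in limma, 1951 with 16 added and 2350 in limma-trend, and 4769 had an unadjusted p under 0.05. Over the brightest probe sets of the 8 common subunits the median log2 fold change was -0.05, beside -0.02 over all probe sets tested, with 6 genes below 0 and 2 above. Among the 18 common probe sets with a mean intensity over 1000 in DUC livers the log2 fold change lay between -0.21 and 0.12. Of all 23 probe sets 5 did not overlap between the lines, or 21.7%, while 29.4% of all probe sets did not. These 5 were Cox6b2 and 1 dim Cox5b probe set (higher in DUhTP) and 2 of Cox5a and 1 of Cox6a1 (lower).

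**Figure D4:**
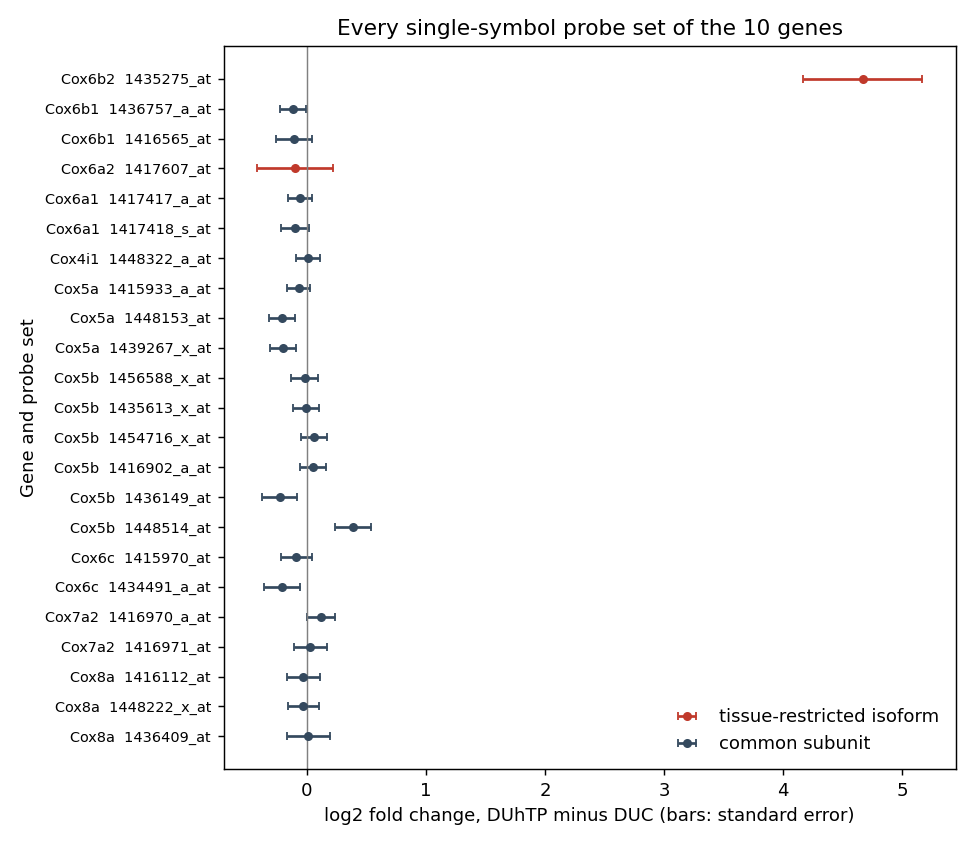
Log2 fold change (DUhTP minus DUC) with its standard error for each of the 23 probe sets of the 10 genes, tissue-restricted isoforms in red and common subunits in dark blue. Cox6b2 lies at 4.67 and the common subunits between -0.23 and 0.39.

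Cox4i1 (chr8:120668225-120674209 on GRCm38.p6), the common form of the largest nuclear-encoded subunit and a site of regulation by ATP, was level. It read 6338, 6151 and 6237 in DUhTP arrays, against 5839, 6446 and 6278 in DUC arrays. The mean of 6242 ± 93.9 in DUhTP livers lay within 1 SD of the 6188 ± 314 in DUC livers (SD, n = 3 arrays each; FC 1.01).

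Cox5a (chr9:57517328-57532427), a matrix-side subunit next to Cox4i1, leaned lower in DUhTP livers on all of its 3 probe sets. On 1448153_at it read 4306, 4143 and 3881 in DUhTP arrays, against 4545, 4993 and 4755 in DUC arrays. On 1439267_x_at it read 2934, 2663 and 2923 in DUhTP arrays, against 2992, 3371 and 3399.6 in DUC arrays. The lines did not overlap on either, with a log2 fold change of -0.21 and -0.20 (standard error 0.11 each). On the brightest probe set, 1415933_a_at, they overlapped, at 5335 ± 163 in DUhTP and 5614 ± 280.2 in DUC livers (log2 fold change -0.07, standard error 0.10).

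Cox5b (chr1:36691487-36693388), the zinc-binding subunit on the matrix side, had 6 probe sets that differed in brightness. The brightest, 1456588_x_at, read 5336, 5134 and 4707 in DUhTP arrays, against 4827, 5257 and 5263 in DUC arrays, and the lines overlapped. It and 3 further bright probe sets had log2 fold changes between -0.02 and 0.06. The dimmer 1436149_at read 171 ± 10.4 in DUhTP and 203 ± 32.4 in DUC livers (log2 fold change -0.23). The dimmest, 1448514_at, read 9.52, 11.1 and 8.42 in DUhTP arrays, against 7.48, 6.66 and 7.92 in DUC arrays (log2 fold change 0.39, standard error 0.15). The probe sets of this gene thus pointed both ways, and the bright ones stood near 0.

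Cox6c and Cox7a2, like Cox6b1, varied more among DUhTP arrays than among DUC arrays. Cox6c (chr15:35931976-35938246) is a small membrane-spanning subunit, and Cox7a2 (chr9:79755241-79771422) is the liver form of subunit 7a. Cox6c on 1415970_at read 4639, 4205 and 5347 in DUhTP arrays, against 5067, 5274 and 4714 in DUC arrays (log2 fold change -0.09, standard error 0.13). Its other probe set, 1434491_a_at, stood at a log2 fold change of -0.21 (standard error 0.15). Cox7a2 on 1416970_a_at read 6366, 5770.4 and 7240.4 in DUhTP arrays, against 5928, 5925 and 5881 in DUC arrays (log2 fold change 0.12, standard error 0.12). Its other probe set, 1416971_at, stood at 0.03, and on each of these 4 probe sets the lines overlapped.

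Cox8a (chr19:7215158-7217616), the common form of subunit 8, was level as well. On 1416112_at it read 2306, 2466 and 2144 in DUhTP arrays, against 2473, 2585 and 2044 in DUC arrays (log2 fold change -0.03, standard error 0.14). The other bright probe set, 1448222_x_at, had the same log2 fold change of -0.03, and the dim 1436409_at stood at 0.01. On all 3 probe sets replicate 3 was the lowest array of each line.

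The order of the DUhTP arrays differed between the common subunits. On their brightest probe sets replicate 3 was the highest DUhTP array for 3 of the 8 genes and the lowest for 3. Replicate 2 was the highest for 2 genes and the lowest for 5. On 6 of the 6 probe sets of Cox6b1, Cox6c and Cox7a2, DUhTP replicate 3 was the highest and replicate 2 the lowest array of the line. This group was not set beforehand, so its count supports nothing. Cox6b2 had its highest DUhTP value in replicate 2. The mean log2 deviation of the 8 common subunits from their own 6-array means was -0.005, -0.058 and 0.015 in DUhTP replicates 1, 2 and 3, and -0.010, 0.060 and -0.002 in DUC replicates 1, 2 and 3. The lines overlapped in this mean as well. The arrays share the RNA and the scaling of all genes, so these deviations are not independent between genes.

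Other subunits of complex IV were measured for 7 of 12 genes on the list, with 10 probe sets. None of the 7 passed the test in limma, 0 had an unadjusted p under 0.05, and 0 passed with 16 added. They included 4 forms that are restricted to certain tissues. Cox8c, a form of subunit 8 described in testis, read 158 ± 18.2 in DUhTP and 148 ± 19.0 in DUC livers (SD, n = 3 arrays each; log2 fold change 0.10, adjusted p = 0.773 from limma). Cox4i2, the lung form of subunit 4, read 33.7 ± 8.97 in DUhTP and 40.3 ± 3.83 in DUC livers (adjusted p = 0.481 from limma). The heart and muscle forms Cox7a1 and Cox8b were dim, at 19.3 ± 6.73 and 15.5 ± 1.55 in DUhTP livers and at 18.1 ± 4.47 and 12.9 ± 2.23 in DUC livers (adjusted p = 0.931 and 0.403 from limma). Of the common ones, Ndufa4 stood at a log2 fold change of -0.10 (adjusted p = 0.64 from limma). Cox7a2l, which helps complexes III and IV to associate, had log2 fold changes of -0.13 to -0.18 on 3 probe sets (adjusted p = 0.416 to 0.52 from limma). All DUhTP arrays lay below all DUC arrays on 1432263_a_at and 1421772_a_at, but not on 1432264_x_at. Of all probe sets 29.4% did not overlap between the lines. Both Cox7c probe sets were dim, and their log2 fold changes of -0.40 and -0.89 did not pass (adjusted p = 0.482 and 0.463).

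Cytochrome c brings the electrons to complex IV, and neither of its genes passed the test. Cycs, the somatic form, read 3909.8, 2982 and 4364 in DUhTP arrays on 1456071_a_at, against 4520, 4372 and 4762 in DUC arrays. All DUhTP arrays lay below all DUC arrays on each of its 3 probe sets, the margin being small on this one. The log2 fold changes were -0.30, -0.40 and -0.46 (adjusted p = 0.369, 0.25 and 0.25 from limma, and 0.258, 0.131 and 0.123 with 16 added). The testis form Cyct was dim, at 12.9 ± 7.80 in DUhTP and 15.3 ± 4.27 in DUC livers (SD, n = 3 arrays each; adjusted p = 0.684).

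Of 17 measured genes on the list of complex IV assembly factors, 1 passed the test. The list is broad and includes Fastk, described here only by its RNA-binding family. Cox19, a copper-binding protein of the intermembrane space needed to build the enzyme, read 789.8, 656 and 784 in DUhTP arrays, against 419, 346 and 364 in DUC arrays. The lines did not overlap, and Cox19 rose in DUhTP livers with an FC of 1.97 (0.98 ± 0.14 on the log2 scale, standard error, adjusted p = 0.032 from limma). The call was lost whichever array was left out (adjusted p = 0.0576 to 0.137) and kept with 16 added, whichever array was left out (adjusted p up to 0.0163). With 16 added, 4 of the 17 passed, on 4 of 29 probe sets. The other 3 read lower: Coa6, which helps to deliver copper (FC -1.54, adjusted p = 0.143, and 0.0421 with 16 added), Fastk, of a family that binds mitochondrial RNA (FC -1.54, 0.148 and 0.0461), and Coa5 on its dimmer probe set 1426356_at (FC -1.52, 0.0755 and 0.0206). The brighter Coa5 probe set, 1426355_a_at, had an FC of -1.08. Cox17 and Sco2, chaperones that carry copper to the enzyme, had log2 fold changes of -0.08 and -0.03 (adjusted p = 0.746 and 0.937).

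The other proton-pumping complexes and the ATP synthase also moved little as groups. The median log2 fold change was 0.09 over 32 genes of complex I, 0.04 over 9 of complex III and 0.02 over 15 of complex V, beside -0.05 for the common subunits of complex IV. In complex I 1 gene passed the test in limma (4 with 16 added, 3 of them higher, and 8 in limma-trend), and 0 did so in complexes III and V (0 and 2 genes at an unadjusted p under 0.05, 0 and 2 in limma-trend, 0 and 2 with 16 added). The gene was Ndufv1, the subunit that accepts electrons from NADH, which rose on 1415966_a_at, at 1702 ± 143 in DUhTP and 565 ± 76.2 in DUC livers (SD, n = 3 arrays each; FC 3.02, adjusted p = 0.0141 from limma). Its other probe sets had an FC of 1.02 and 1.16, and the call was lost without any 1 array other than DUhTP replicate 3 (adjusted p up to 0.074) and kept with 16 added, whichever array was left out (up to 0.0019). The brightest members, Ndufb9, Ndufb11, Uqcrb, Cyc1, Atp5b and Atp5g3, had log2 fold changes between -0.07 and 0.13 and did not pass.

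Of 12 regulators of respiratory genes, 2 fell and 0 rose in DUhTP livers. Both are coactivators of mitochondrial gene programmes. Ppargc1b read 63.1, 62.3 and 81.4 in DUhTP arrays, against 148, 159 and 178 in DUC arrays (FC -2.36, adjusted p = 0.0263 from limma). Ppargc1a read 17.4 ± 2.09 in DUhTP and 38.5 ± 2.35 in DUC livers on 1437751_at (SD, n = 3 arrays each; FC -2.22, adjusted p = 0.0228 from limma). Its brightest probe set, 1460336_at, had an FC of -2.28 (adjusted p = 0.0499 from limma). Both are dim, and with 16 added their FC was -1.63 and -1.69, beside -2.1 for Ppargc1b. The remaining Ppargc1a probe sets, all dimmer, also read lower but did not pass (adjusted p = 0.0727, 0.0941 and 0.19 from limma). Ppargc1a on 1437751_at lost the call whichever array was left out (adjusted p up to 0.107) and Ppargc1b without any 1 array other than DUhTP replicate 3 (up to 0.118), and both kept it with 16 added, where 5 of the 12 were lower. The brightest others, the mitochondrial transcription factor Tfb2m and Yy1, did not pass at -0.96 and -0.50 on the log2 scale (adjusted p = 0.0545 and 0.11), and both were lower with 16 added (0.00514 and 0.036).

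Markers of the tissues in which the restricted isoforms are known were measured beside them. Of 23 markers of male germ cells, 0 passed in limma, with 16 added or in limma-trend, and 3 had an unadjusted p under 0.05. Their summed intensity was 1181 to 1419.7 in DUhTP and 1118 to 1254 in DUC arrays, with a median log2 fold change of 0.10. The brightest were Sycp3 at 411 ± 107 in DUhTP and 373 ± 37.5 in DUC livers and Prm1 at 335 ± 41.2 in DUhTP and 301 ± 3.08 in DUC livers (SD, n = 3 arrays each; adjusted p = 0.815 and 0.57). Of 27 markers of striated muscle, 1 passed, the oxygen store myoglobin (Mb), which fell (FC -1.74, adjusted p = 0.0453 from limma, 0.0813 to 0.159 with 1 array left out, and 0.0159 to 0.0605 with 16 added as well). Their summed intensity was 688 to 807 in DUhTP and 681 to 715 in DUC arrays. The brightest, Tnnc1 and Casq1, stood at a log2 fold change of 0.26 and 0.08 (adjusted p = 0.361 and 0.897).

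Transcripts of other cells differed between the arrays. Markers of exocrine pancreas had a summed intensity of 1012 to 4255 in DUhTP and 4883 to 9553 in DUC arrays, and the median over 9 genes was -2.55 on the log2 scale. None of the 9 passed in limma, while 6 had an unadjusted p under 0.05, 6 passed in limma-trend and 5 with 16 added. The trypsinogen Prss2 read 492, 53.9 and 275 in DUhTP replicates 1, 2 and 3, against 708, 1214 and 949.8 in DUC replicates 1, 2 and 3 on 1417682_a_at. The DUhTP array with the most Cox6b2 thus had the least Prss2, while the DUC array with the most Cox6b2 had the most. Of the brightest markers, the elastase Cela1 had a log2 fold change of -0.12 and the chymotrypsinogen Ctrb1 one of -3.05 (adjusted p = 0.842 and 0.151, and 0.804 and 0.0259 with 16 added). Their part in the values of Cox6b2 was not tested. In bulk tissue, fewer cells of a type and less RNA per cell cannot be told apart.

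Among 10 markers of leukocytes and Kupffer cells, the Kupffer cell lectin Clec4f rose (645 ± 70.4 in DUhTP and 297 ± 44.7 in DUC livers, SD, n = 3 arrays each; adjusted p = 0.032 from limma, 0.0708 to 0.137 with 1 array left out, and 0.0136 at most with 16 added as well). With 16 added 5 of the list passed, 4 of them higher. The lower one was Marco, at 32.3 ± 3.76 in DUhTP and 49.0 ± 3.31 in DUC livers without overlap (log2 fold change -0.60, adjusted p = 0.0778 from limma, and 0.0434 with 16 added). Without the added 16 the genes other than Clec4f did not pass, among them the bright Csf1r and Cd5l at log2 fold changes of 0.66 and -0.01 (adjusted p = 0.0731 and 0.988, and 0.0135 and 0.985 with 16 added). Of 5 cholangiocyte markers and 9 of endothelial and stellate cells, 0 passed in limma (0 and 2 genes at an unadjusted p under 0.05, 0 and 2 with 16 added). The brightest were Sox9 and Krt19 of bile ducts, at -0.17 and 0.14 on the log2 scale (adjusted p = 0.727 and 0.763), and Stab2 and Reln of sinusoids and stellate cells, at 0.48 and 0.18 (adjusted p = 0.123 and 0.455, and 0.0437 and 0.414 with 16 added). The other Sox9 probe set, 1451538_at, went the other way, at 0.40 without overlap between the lines (adjusted p = 0.314 from limma). Of 7 brown adipocyte markers, Ppargc1a fell as above and Ucp1 was called higher at 2.74 ± 1.02 in DUhTP and 0.696 ± 0.104 in DUC livers (adjusted p = 0.0449 from limma, up to 0.151 with 1 array left out, 0.383 with 16 added). The brightest of that list, Elovl3 and Dio2, did not pass (log2 fold change 0.21 and -0.03).

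**Figure D5:**
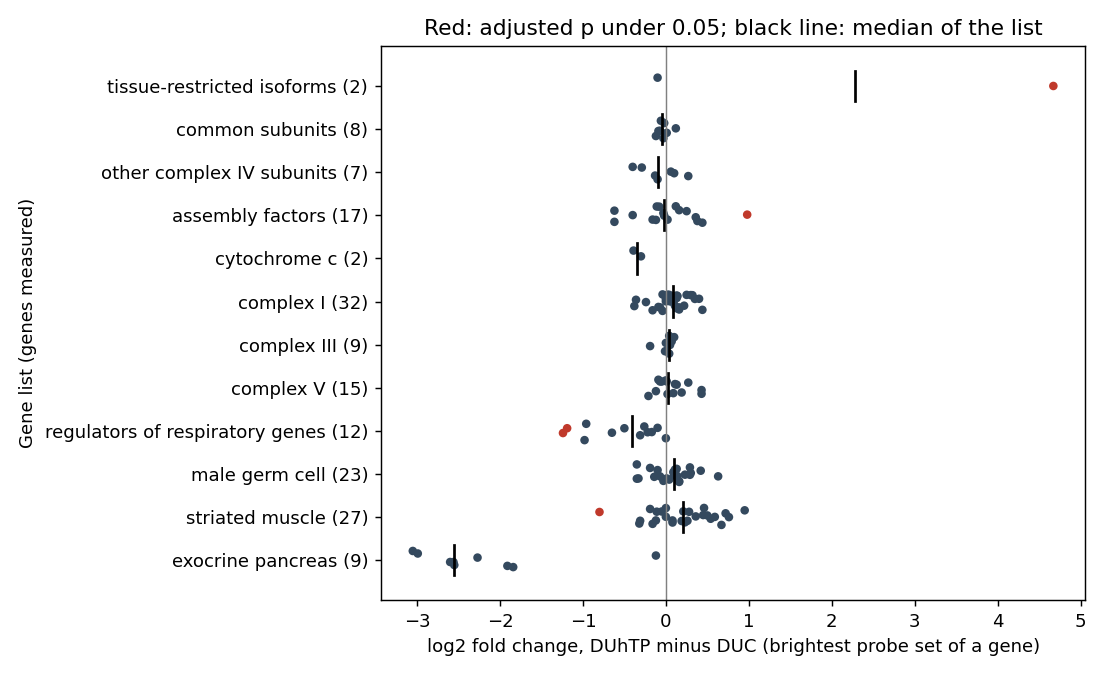
Log2 fold change (DUhTP minus DUC) of the brightest probe set of each measured gene in 12 of the lists, with the number of genes in brackets and a black line at the median; red points have an adjusted p under 0.05. Cox6b2 lies at 4.67 beside Cox6a2 at -0.10, and the 8 common subunits surround a median of -0.05; Ndufv1 passed only on a probe set that is not its brightest.

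The transcripts whose pattern over the 6 arrays was most like that of Cox6b2 were Aimp2, St6gal1, Nacc1, Smdt1 and Pdia6, with a Pearson correlation of log2 intensities of 0.9988, 0.998, 0.9963, 0.996 and 0.9954. They were the highest of 12392 genes compared, of which 275 exceeded 0.95. The arrays form 2 lines, so the correlation contains the difference between them and is given as a description. Smdt1, a part of the mitochondrial calcium uniporter, read 986, 1083 and 993 in DUhTP arrays, against 705, 778 and 694 in DUC arrays (FC 1.41). The FC was 2.32 for the sialyltransferase St6gal1, 1.93 for the disulfide isomerase Pdia6, 1.32 for Aimp2 and 1.28 for Nacc1. As a gene chosen for its likeness to Cox6b2 also takes over the difference between the lines, these are not tested.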

How the data were processed

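Per the labels and the methods, the authors scaled the arrays in GCOS 1.1.1 and, in Array Assist, summarized each probe set with PLIER. The deposited values are linear intensities of 6 arrays, the PLIER version and any added constant are not given in the sources used here, and no depth applies to arrays, whose number limits the precision.

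Of 22690 probe sets, 64 controls were left out. Intensities were logged to base 2 without a constant, as all were above 0, and fitted by line in limma 3.58.1 (R 4.3.3, lmFit and eBayes), with p adjusted over all 22626 probe sets by Benjamini-Hochberg and called under 0.05. Gene names came from the array annotation (20380 probe sets with 1 symbol, 691 with several, 1555 with none) and places and promoters from RefSeq. Of the 23 probe sets 6 have IDs ending in _s_at or _x_at and may match other transcripts, and RefSeq lists 2 pseudogenes named after members (of Cox5b and Cox6c).

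The members and lists were chosen with earlier results of these data known. Named were all members, other complex IV subunits and cytochrome c, and the called and the 2 brightest genes of each other list. Also named were the 4 nearest measured genes on each side of Cox6b2, and the 5 genes most like it over the arrays. Coa5, Coa6, Cps1, Fastk, Fgb, Hnf4a, Marco, Prss2, Serpina1c and Ttr were added after their values were seen, as were values for further probe sets. The labels do not tie equal replicate numbers of the lines together. The alternatives were 16 added before the log, quantile normalization, no dimmest 33.3%, limma-trend, a replicate block, each array left out, no _s_at or _x_at probe sets, unadjusted p and the mean of all probe sets of a gene. The procedure was tested on simulated data.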

Additional observations from a re-analysis of the deposited data

How the results depend on the processing

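With 16 added to every intensity the called probe sets numbered 1951, the called assembly factors 4, the Cox6b2 log2 fold change was 3.61 and the difference of Cox6b2 over Cox6b1 between the lines 3.73. Without the dimmest 33.3% of the probe sets 1851 probe sets and 2 assembly factors were called, and with limma-trend 2350 and 6. By unadjusted p under 0.05, 2 of the 23 member probe sets were counted, beside 4769 of all 22626. With the replicate number as a block 0 probe sets, 0 member probe sets and 0 assembly factors were called in limma, while 4124 probe sets had an unadjusted p under 0.05. Same-numbered arrays of the lines correlated in their deviations at 0.00341, 0.0048 and 0.0667, and the other pairs at -0.0335 to 0.0281. No strong pairing shows, and a weak one cannot be judged from so few arrays. Leaving out 1 array gave 1 to 122 called probe sets (121, 122 and 89 when it was a DUhTP array, 1 to 3 in order, and 59, 1 and 30 when it was a DUC array). It gave 0 to 1 member probe sets (1 only without DUhTP replicate 1, but 1 whichever array was left out with 16 added) and 0 assembly factors. It gave a Cox6b2 log2 fold change of 4.39 to 5.16 (with 16 added 3.90, 3.35 and 3.58 without a DUhTP array and 3.49, 3.86 and 3.47 without a DUC array), a difference of Cox6b2 over Cox6b1 of 4.47 to 5.24, one of Cox6a2 over Cox6a1 of -0.37 to 0.18, and a median of the common subunits of -0.06 to -0.02. The other alternatives, 65 of 101, changed no count by over 1.5 times and no value by more than the SD between arrays. The cause was not tested. With 3 arrays a line, small differences of the common subunits could not be resolved.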
